A study of Mus musculus with 18 samples.

Results

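The genes described here are A530021J07Rik, Dapl1, Lypd6b, Igfbp4, Actn1, Snn, Tdrp and Afp, 8 of the 18193 mouse genes that a probe set with a single gene symbol represented on the arrays. They were chosen by their measured values in these same arrays: each had been seen to be lower in lymph node or fat Treg than in Tconv, or lower in fat Tconv than in lymph node Tconv. Their differences in those comparisons are therefore given as a description, with no test. All 8 passed the filter on dim signals that left 12821 genes, but A530021J07Rik and Afp passed through the lymph node Tconv group alone and Dapl1 through the lymph node and fat Tconv groups, so passing was tied to the pattern they were chosen for.

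The arrays held RNA of CD4 T cells sorted from lymph node, thymus and epididymal fat, with 3 arrays in each of 6 groups. In each tissue CD25+ cells (Treg, regulatory T cells) were set beside CD25- cells (Tconv, conventional T cells), both gated on CD4+ and against B220, CD11b and CD8a. Lymph node cells came from C57BL/6 mice of 32 to 36 weeks in pools of 3 to 6 mice per array. For fat, males of the same C57BL/6 strain aged 25 to 35 weeks were pooled, 8 to 10 per array, and TCRb+ was added to the sort. The thymus pools held 3 to 6 BDC2.5/NOD mice aged 4 to 6 weeks, and CD8a cells were depleted first. BDC2.5 is a transgenic T cell receptor on the diabetes-prone NOD background, so thymus and lymph node differed in strain and age as well as in tissue, and these cannot be told apart. The sort used CD25 and no marker of naive or memory cells, so a Tconv pool could hold both, and in pooled RNA fewer cells of a type and less RNA per cell cannot be told apart. Every sample was amplified in 2 rounds before hybridisation. Nothing in the labels ties an array to single mice, so every error below is a spread between pools.

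Naive CD4 T cells circulate through lymphoid organs in a quiescent state held by transcription factors such as Lef1, Bach2, Foxo1 and Klf2, and lose much of that programme once antigen activates them. Igfbp4, Dapl1 and Actn1 recur in transcript profiles of naive or resting T cells. Many Treg and the T cells that settle in adipose tissue carry transcripts of activated cells.

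As a check of the sort, Foxp3, the lineage factor of Treg, read 44.4 ± 8.80 (SD, n = 3) in lymph node Tconv and 901 ± 55.8 in lymph node Treg, 32.6 ± 10.1 and 774 ± 234 in thymus, and 91.3 ± 40.1 and 1558 ± 97.8 in fat. All 7 CD4 T cell markers with a probe set were above the filter in every group. Markers of other cells stood higher in fat: the summed intensity of 9 stromal and endothelial markers was 355 to 454 in the 12 lymph node and thymus arrays but 2895 to 8783 in the 6 fat arrays, and that of 6 adipocyte markers was 186 to 282 against 2230 to 6243, although Adipoq, Cidec and Lep stayed below the filter in fat. The summed macrophage and monocyte markers (8 genes) were at most 788 outside fat and 921 to 3492 in fat. Immature thymocyte markers (7 genes) summed to 1972 to 7884 in thymus and 389 to 729 in lymph node, and within fat to 659 to 833 in Tconv and 1279 to 2633 in Treg. In both fat groups Rag1, Rag2, Ptcra and Cd8b1 were below the filter. Of 6 tested genes of this list, 1 rose in fat Treg and 0 fell (6.32% and 5.19% of all genes), with a median of -0.08. B cell markers (6 genes) summed to 771 to 897 in lymph node Tconv and 1043 to 1458 in lymph node Treg. Of 5 tested, 2 rose and 0 fell there (3.21% and 1.11% of all genes). Natural killer and cytotoxic markers (6 genes) summed to 802 to 1013 in lymph node Tconv, 5586 to 6548 in fat Tconv and 2201 to 3515 in fat Treg. The part of other cells in the differences between tissues, or between Treg and Tconv of any tissue, was not tested. Array medians were 76.9 to 82.2 in fat and 57.9 to 63.0 elsewhere, so tissues were compared after quantile normalization of all 18 arrays, and Treg were compared with Tconv of one tissue on the deposited scale.

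RefSeq gave a promoter window, 250 bases before to 50 after the annotated start in GRCm38.p6, for 6 of the 8 genes (Lypd6b and Tdrp are named only). The 4 windows shown belong to the 3 genes whose lymph node Tconv arrays stood above every other array (A530021J07Rik, Dapl1 and Afp) and to Snn, one of the pair with their highest mean in thymus Tconv. They are given 5′ to 3′ along the gene. Capitals mark a match to TGTTTAC, the core bound by FOXO factors, or CCACCC, the core bound by KLF factors, on either strand; all other bases are in lower case.

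A530021J07Rik (chr7:83148220-83148519, plus strand): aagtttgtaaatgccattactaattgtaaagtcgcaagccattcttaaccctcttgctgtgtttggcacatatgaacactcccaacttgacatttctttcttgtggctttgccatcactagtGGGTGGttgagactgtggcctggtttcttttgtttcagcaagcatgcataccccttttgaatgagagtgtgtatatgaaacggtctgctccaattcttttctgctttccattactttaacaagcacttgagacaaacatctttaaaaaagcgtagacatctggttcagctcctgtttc

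Dapl1 (chr2:59484403-59484702, plus strand): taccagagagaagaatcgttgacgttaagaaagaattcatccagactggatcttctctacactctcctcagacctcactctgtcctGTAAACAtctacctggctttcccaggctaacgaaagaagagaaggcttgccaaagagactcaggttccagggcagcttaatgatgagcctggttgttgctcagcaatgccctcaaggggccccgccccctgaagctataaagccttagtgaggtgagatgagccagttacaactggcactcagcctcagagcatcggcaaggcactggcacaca

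Snn (chr16:11066048-11066347, plus strand): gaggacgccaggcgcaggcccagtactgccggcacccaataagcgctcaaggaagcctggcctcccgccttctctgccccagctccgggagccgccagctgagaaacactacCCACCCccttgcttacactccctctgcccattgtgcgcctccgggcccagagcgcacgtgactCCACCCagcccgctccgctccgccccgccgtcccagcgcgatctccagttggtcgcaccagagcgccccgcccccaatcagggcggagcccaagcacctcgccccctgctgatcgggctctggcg

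Afp (chr5:90490464-90490763, plus strand): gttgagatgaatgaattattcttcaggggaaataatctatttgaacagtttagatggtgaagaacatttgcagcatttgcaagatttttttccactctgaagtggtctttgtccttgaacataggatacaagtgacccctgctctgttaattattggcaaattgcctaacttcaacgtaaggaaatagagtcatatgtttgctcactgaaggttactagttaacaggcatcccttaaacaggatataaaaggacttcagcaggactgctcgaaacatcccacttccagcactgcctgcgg

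The Dapl1 window held 1 FOXO core, read on the minus strand as GTAAACA from position -164 relative to the start, a core found in 3.65% of all 32851 windows of the same length. The A530021J07Rik window held 1 KLF core (minus strand, from position -128) and the Snn window held 2 (from positions -138 and -75); 31.5% of all windows held at least 1. None of the 6 windows held CTTTGA, the TCF and LEF core, or CCGGAA, the ETS core, which 16% and 14.9% of all windows held. Both strands were searched, and none of these cores overlapped another in the windows shown. Base composition differed among the 6: GC content was 40.7% for A530021J07Rik, 40.0% for Afp, 51.0% for Dapl1, 68.3% for Actn1, 70.3% for Snn and 71.3% for Igfbp4, against a median of 52.7% over all windows. A match is a description of letters and not a site shown to be bound.

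Igfbp4 and Afp encode secreted proteins. Igfbp4, a binding protein that holds insulin-like growth factors in the extracellular fluid, was above the filter in all 6 groups. In lymph node its intensity was 6623, 6592 and 5321 in the 3 Tconv arrays and 2363, 1826 and 870 in the 3 Treg arrays. In thymus it was 4748, 4283 and 7181 in Tconv and 1887, 3428 and 1389 in Treg, and in fat 1873, 2572 and 1778 in Tconv and 1648, 597 and 596 in Treg. Treg lay below Tconv in each tissue with no overlap, and lymph node and thymus Tconv overlapped each other while standing above all other arrays. The Treg minus Tconv difference was -1.98 ± 0.41 (SE, log2) in lymph node, a 3.96-fold ratio, -1.34 ± 0.41 in thymus and -1.29 ± 0.41 in fat. Its 5 other probe sets, all above the filter in every group, were lower in Treg of lymph node (-0.22 to -2.54) and thymus (-0.29 to -1.95) but split in fat, where 3 were lower (-0.26, -0.96 and -1.64) and 2 slightly higher (0.13 and 0.14). The 3 same-numbered pairs in fat differed widely, by -0.18, -2.11 and -1.58. The Treg array of the first pair had the highest stromal sum (8783) and adipocyte sum (6243). Any link, which would rest on a single array, was not tested.

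Afp, alpha-fetoprotein, is a fetal serum protein of the albumin family made chiefly by yolk sac and fetal liver. In lymph node its probe set read 318, 184 and 200 in Tconv and 85.5, 30.6 and 55.9 in Treg, a difference of -2.11 ± 0.52. In fat it read 15.6, 90.2 and 45.8 in Tconv and 29.5, 49.4 and 70.5 in Treg, and in thymus 12.4, 7.52 and 9.69 in Tconv and 10.3, 17.8 and 7.56 in Treg. The 3 lymph node Tconv arrays were the highest of all 18, the lowest of them at 184 against 90.2 for the highest of the other 15, and Treg overlapped Tconv in both other tissues. Thymus Tconv was lower than lymph node Tconv by -4.55 ± 0.52 on the quantile scale. All groups but lymph node Tconv had means below the filter, so these differences are set against dim values. The other 4 Afp probe sets bore this out only in part. One read 71.3 in lymph node Tconv and 29.8 in Treg (-1.22). Another read 83.6 and 25.3 (-1.38), but its lowest Tconv array (28.2) lay below its highest Treg array (36.0). On the log2 scale none of its group means passed the filter. The last 2, also below the filter in every group, differed by -0.14 and -0.12. Of these the second was higher in fat Tconv than in lymph node Tconv by 1.35. Alb, the nearest relative of Afp and the defining serum protein of hepatocytes, was below the filter in every group, with means of 43.8 to 62.5.

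Lypd6b and Snn encode small membrane proteins. Lypd6b is anchored to the cell surface by a glycolipid, carries a Ly6/uPAR domain and is known to modulate nicotinic acetylcholine receptors. It read 444, 252 and 431 in lymph node Tconv and 28.9, 34.2 and 39.5 in lymph node Treg. In thymus it read 317, 478 and 372 in Tconv and 59.2, 52.9 and 54.1 in Treg, and in fat 59.6, 162 and 118 in Tconv and 26.6, 33.2 and 27.7 in Treg. All 3 Treg groups had means below the filter (65.9), whatever the tissue, while lymph node and thymus Tconv overlapped at high levels and fat Tconv lay between. The difference was -3.42 ± 0.29 in lymph node (10.7-fold), -2.79 ± 0.29 in thymus (6.93-fold) and -1.85 ± 0.29 in fat (3.60-fold), ratios that are likewise set against dim Treg values.

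Snn, stannin, is a short membrane protein linked to the toxicity of organotin compounds. It read 395, 291 and 276 in lymph node Tconv and 113, 132 and 98.4 in lymph node Treg, and 446, 390 and 412 against 207, 213 and 114 in thymus. In fat it read 67.2, 102 and 69.1 in Tconv and 97.9, 66.5 and 61.4 in Treg. Treg lay below Tconv with no overlap in lymph node (-1.48 ± 0.24, 2.78-fold) and thymus (-1.28 ± 0.24), whereas in fat both groups were low and overlapped (-0.08 ± 0.24), with the first pair at 0.54 and the other pairs at -0.61 and -0.17. The fat means, 79.3 in Tconv and 75.3 in Treg, lay near the fat array medians of 76.9 to 82.2, so differences involving them can be understated. Its highest mean was in thymus Tconv, not lymph node Tconv; the arrays of these groups overlapped as deposited and did not on the quantile scale. The other Snn probe set gave 73.4 in lymph node Tconv and 67.1 in Treg (-0.12), so the pattern rests on 1 of 2 probe sets.

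Actn1 encodes the non-muscle alpha-actinin that crosslinks actin filaments and couples them to adhesion sites. It read 2105, 2444 and 2162 in lymph node Tconv and 1252, 1355 and 717 in lymph node Treg. In thymus it read 1766, 2628 and 1841 in Tconv and 1367, 1379 and 1162 in Treg, and in fat 660, 1163 and 818 in Tconv and 253, 94.7 and 131 in Treg. Treg was below Tconv in each tissue without overlap, and the 3 fat Treg arrays were the lowest of all 18. The difference was -1.06 ± 0.31 in lymph node (2.09-fold), -0.65 ± 0.31 in thymus and -2.55 ± 0.31 in fat (5.84-fold). All 6 group means were above the filter. Whether the difference in fat exceeds that in lymph node was not tested. Its 2 other probe sets did not show this pattern. One was below the filter in every group and gave -0.28 in lymph node and -0.02 in fat. The other was above the filter in fat alone, read 137 in fat Tconv and 138 in fat Treg (0.01), and was higher in fat Tconv than in lymph node Tconv by 1.46, opposite to the -1.38 of the probe set used, both as deposited. The Actn1 values thus rest on 1 of 3 probe sets.

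Dapl1, named for its similarity to a death-associated protein, has a single probe set here. It read 752, 535 and 272 in lymph node Tconv and 78.3, 59.9 and 27.5 in lymph node Treg. In fat it read 92.3, 259 and 169 in Tconv and 38.3, 84.3 and 57.3 in Treg, and in thymus 51.3, 48.7 and 62.6 in Tconv and 46.3, 55.8 and 35.8 in Treg. Lymph node Tconv was highest, fat Tconv came next, and the Treg groups lay low together with thymus Tconv. The step from lymph node to fat Tconv was narrow as deposited, with 272 in the lowest lymph node Tconv array and 259 in the highest fat Tconv array, and wider on the quantile scale (325 against 214). The step below fat Tconv closed on the quantile scale, where its lowest array read 74.7 and the highest lymph node Treg array 86.7. The level varied widely among the lymph node Tconv arrays, but the 3 pairs differed by much the same amount, -3.26, -3.16 and -3.31, and the fitted difference was -3.24 ± 0.43, or 9.48-fold. In fat the difference was -1.48 ± 0.43 (2.79-fold). Every Treg group mean was below the filter, so both ratios are set against dim values.

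Tdrp, named from testis development, also has a single probe set. It read 1446, 909 and 867 in lymph node Tconv and 158, 157 and 135 in lymph node Treg, 1192, 1460 and 1733 against 191, 191 and 361 in thymus, and 335, 528 and 422 against 58.7, 59.1 and 55 in fat. Treg lay below Tconv in every tissue without overlap, by -2.80 ± 0.25 in lymph node (6.99-fold), -2.61 ± 0.25 in thymus (6.12-fold) and -2.87 ± 0.25 in fat. The fat Treg mean, 57.6, was below the filter, so the difference in fat is set against dim values. Fat Tconv was below both other Tconv groups, and the fat Treg arrays, within 55 to 59.1, were the lowest of all.

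A530021J07Rik is an uncharacterised locus with 2 probe sets that share a target accession, so they are not independent measures. The one used read 123, 61.5 and 42.3 in lymph node Tconv and 6.15, 6.23 and 5.34 in lymph node Treg. In thymus it read 6.25, 5.81 and 6.59 in Tconv and 5.37, 5.38 and 5.72 in Treg, and in fat 8.15, 14 and 12.3 in Tconv and 6.79, 5.98 and 6.10 in Treg. Only the lymph node Tconv arrays stood above the dim range, and 2 of these 3 were themselves below the filter of 65.9. The lymph node difference was -3.54 ± 0.27 (11.6-fold; the other probe set gave -3.46), measured against values at the bottom of the scale.

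**Figure D1:**
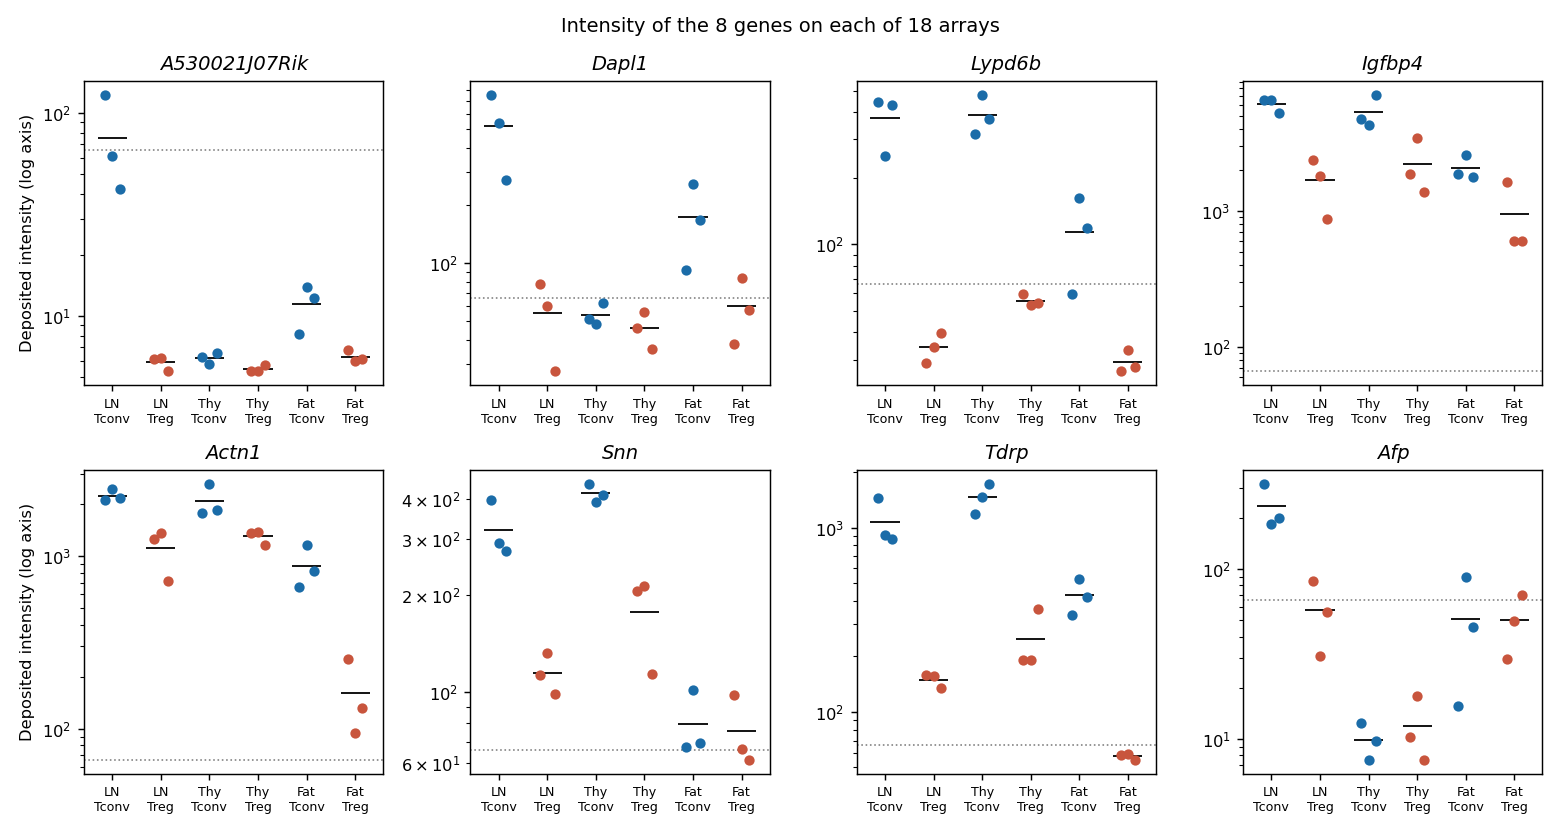
Probe set intensity (log axis) of each of the 8 genes in the 6 groups, 1 point per array, with Tconv in blue, Treg in red, a black line at each group mean and a dotted line at the filter of 65.9. A530021J07Rik, Dapl1 and Afp are highest in the 3 lymph node Tconv arrays alone, while Lypd6b, Igfbp4, Actn1, Snn and Tdrp are as high or nearly as high in thymus Tconv.

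Set against their label as marks of resting lymph node Tconv, the 8 genes fell into different patterns. On the quantile scale 6 of 8 had their highest group mean in lymph node Tconv and 2, Snn and Tdrp, in thymus Tconv. Lymph node Tconv stood apart from all 15 other arrays only for A530021J07Rik, Dapl1 and Afp. For these 3 genes thymus Tconv was lower than lymph node Tconv by -3.44 ± 0.28, -3.14 ± 0.42 and -4.55 ± 0.52. The other 5 differed from it little, by -0.01 ± 0.29 for Lypd6b, -0.19 ± 0.39 for Igfbp4, -0.16 ± 0.30 for Actn1, 0.32 ± 0.23 for Snn and 0.41 ± 0.21 for Tdrp, and for Lypd6b the sign turned to 0.07 as deposited. No gene in this comparison was tested, since its lymph node arrays had chosen the genes.

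In fat, all 8 genes read lower in Tconv than in lymph node Tconv with no overlap of the arrays, which 19.4% of the 12821 genes also did; the genes were chosen partly on this comparison, so nothing follows from the count. The differences on the quantile scale, where the median gene differed by -0.03, were -2.95 ± 0.28 for A530021J07Rik, -2.90 ± 0.52 for Afp, -2.43 ± 0.23 for Snn and -2.22 ± 0.29 for Lypd6b. They were -2.0 ± 0.42 for Dapl1, -1.92 ± 0.39 for Igfbp4, -1.72 ± 0.30 for Actn1 and -1.65 ± 0.21 for Tdrp. As deposited, where the median gene was 0.33 higher in fat, the same differences ranged from -2.61 for A530021J07Rik to -1.31 for Tdrp. Within each of the 3 runs of array file numbers that held both tissues, every one of the 8 genes was lower in fat Tconv. Afp ranged most between runs, from -4.25 to -1.42, and Lypd6b from -3.49 to -1.04.

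The Treg side of the same comparison was uneven. Actn1 was lower in fat Treg than in lymph node Treg by -3.20 ± 0.30, a 9.20-fold ratio, Tdrp by -1.77 ± 0.21, Igfbp4 by -1.25 ± 0.39 and Snn by -1.01 ± 0.23. Actn1 was lower in all 3 runs (-1.92, -4.17 and -3.51), whereas Igfbp4 was higher in fat in 1 of them (0.40) and lower in the others (-1.86 and -2.28). Lypd6b (-0.67 ± 0.29), Afp (-0.59 ± 0.52), A530021J07Rik (-0.32 ± 0.28) and Dapl1 (-0.25 ± 0.42) were below the filter in both Treg groups, and for the last 2 the sign turned to 0.09 and 0.17 as deposited.

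**Figure D2:**
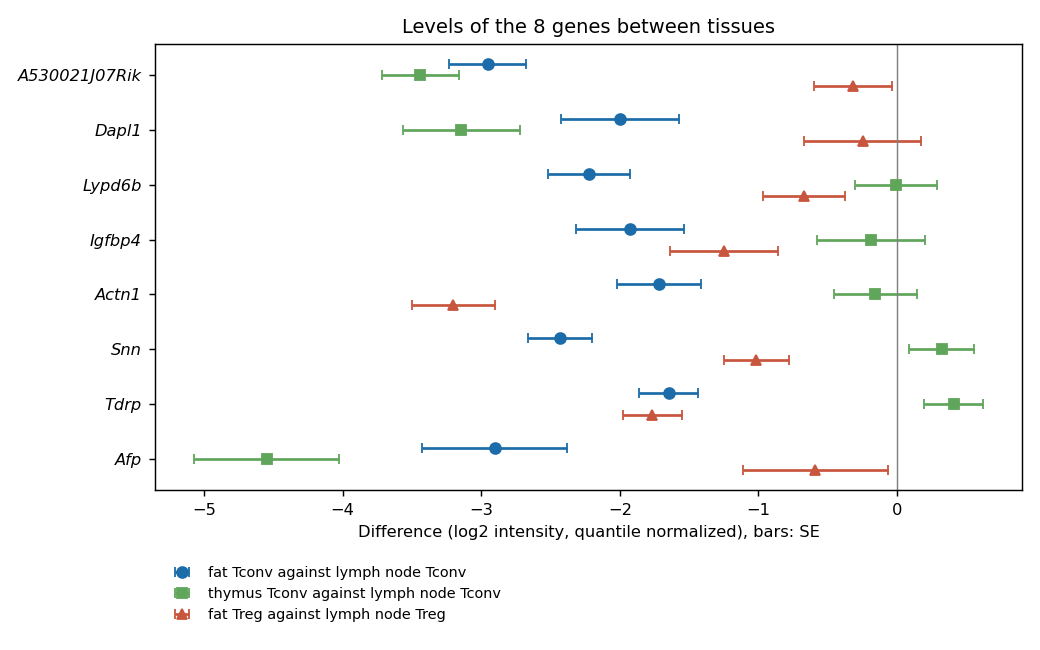
Differences between tissues for the 8 genes (log2, after quantile normalization of all 18 arrays; points are fitted differences and bars ± 1 SE). Fat Tconv lies below lymph node Tconv for all 8 genes (-2.95 to -1.65), fat Treg below lymph node Treg most for Actn1 (-3.20), and thymus Tconv below lymph node Tconv by 3 or more only for A530021J07Rik, Dapl1 and Afp.

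Treg against Tconv in thymus is the comparison that did not enter the choice of the genes, and it was tested with limma over all 12821 genes. Lypd6b, Tdrp and Snn fell in thymic Treg, 3 of 8 genes, where 1.77% of all tested genes fell and 3.21% rose. Lypd6b differed by -2.79 ± 0.29 (limma adjusted p = 6.75e-06), Tdrp by -2.61 ± 0.25 (limma adjusted p = 2.15e-06) and Snn by -1.28 ± 0.24 (limma adjusted p = 0.00332), each lower in 3 of 3 same-numbered pairs. The same direction of Lypd6b and Tdrp in thymus had been seen in these arrays before the list was drawn up, so it is no independent support for the list. All 3 stayed below an adjusted p of 0.05 in all 26 alternative settings, with Snn reaching at most 0.0411 and the smallest difference, -0.67, when its probe sets were averaged. Many of these settings left out a lymph node or fat array, which cannot move the thymic difference and changes only the pooled spread.

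Igfbp4 missed the threshold in thymus (-1.34 ± 0.41, limma adjusted p = 0.0738) although its arrays did not overlap, with pair differences of -1.33, -0.32 and -2.37. Its adjusted p ranged from 0.0249 to 0.262 over the 26 alternatives and passed in 7 of them, among them the fit with the replicate number as a block (limma adjusted p = 0.0386) and the quantile scale (0.0408). It also passed without Treg thymus replicate 2 (0.0297), without Treg lymph node replicate 3 (0.0423) and without Treg fat replicate 1 (0.0285). Leaving out the lymph node or fat array changed only the pooled spread and not the thymic difference. With the block 4 of the 8 genes fell, against 5.41% of all genes, and 6.5% rose. Actn1 differed by -0.65 ± 0.31 (limma adjusted p = 0.326), lower in 3 of 3 pairs without overlap.

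Dapl1, Afp and A530021J07Rik had means below the filter in both thymic groups, and their differences were -0.25 ± 0.43 (limma adjusted p = 0.879), 0.21 ± 0.52 (limma adjusted p = 0.927) and -0.18 ± 0.27 (limma adjusted p = 0.864). Afp and Dapl1 overlapped between the groups. The sign of Afp rested on the array of Treg thymus replicate 2 (17.8): without it the difference was -0.13 (limma adjusted p = 0.972). The summed markers of immature thymocytes overlapped between thymic Tconv (2158 to 6861) and Treg (1972 to 7884). Of 6 tested, 1 fell and 0 rose (1.77% and 3.21% of all genes). B cell and macrophage sums overlapped too. CD4 T cell sums did not, at 19576 to 20452 in Tconv and 11913 to 17783 in Treg. Nor did those of CD8 (155 to 232 and 126 to 149) or natural killer and cytotoxic markers (1139 to 1861 and 2163 to 7569). Their part in the thymic differences was not tested. Arrays lay lower in thymic Treg with no overlap for 6 of the 8 genes and for 10.3% of all genes; 1 of the 6 is A530021J07Rik, far below the filter in both groups, and since passing the filter was tied to the choice of the genes the count is a description only.

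In lymph node all 8 genes lay lower in Treg with no overlap (6.63% of all genes) and in fat 6 of 8 (13% of all genes), the exceptions being Snn and Afp. These comparisons chose the genes, and the counts are no evidence about them. The median difference of the 8 genes was -2.46 in lymph node and -1.39 in fat.

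**Figure D3:**
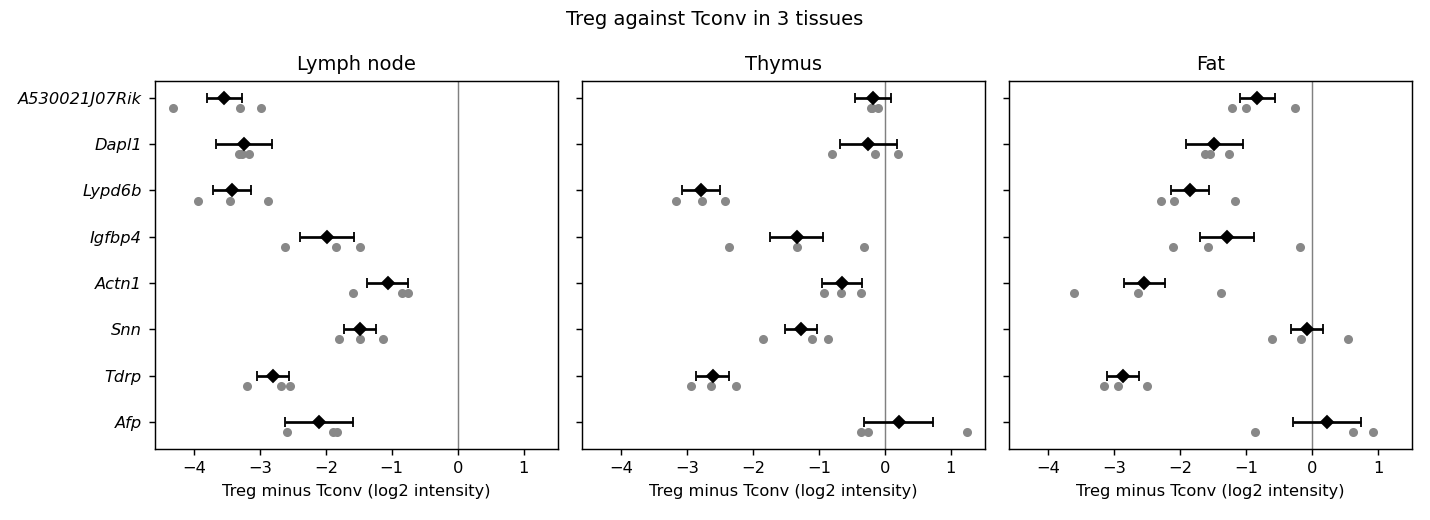
Treg minus Tconv in lymph node, thymus and fat for the 8 genes (log2 intensity as deposited); diamonds with bars are the fitted difference ± 1 SE and grey points the 3 pairs of arrays with the same replicate number. Lypd6b and Tdrp lie far below 0 in all 3 tissues, Dapl1 and A530021J07Rik are near 0 in thymus, Actn1 is lower in fat (-2.55) than in its other panels, and Snn and Afp straddle 0 in fat.

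Over the 18 arrays the 8 genes formed 28 pairs whose log2 values on the quantile scale correlated with Pearson r between 0.04 and 0.95, with a median of 0.61. The arrays share tissue and cell type, and the genes were chosen for a common direction, so these values describe the set only. The highest values joined Lypd6b with Tdrp (0.95) and A530021J07Rik with Dapl1 (0.94). Igfbp4 correlated with Snn at 0.89, with Tdrp at 0.88 and with Actn1 at 0.87. Afp went with A530021J07Rik and Dapl1 (0.76 with each) and showed values of only 0.04 to 0.17 with the other 5. With those same 5 genes, A530021J07Rik and Dapl1 correlated at 0.33 to 0.62. After each group's mean was removed, r lay between -0.27 and 0.70 with a median of 0.28, and was highest for Igfbp4 with Snn (0.70), Igfbp4 with Actn1 (0.64) and A530021J07Rik with Dapl1 (0.64).

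**Figure D4:**
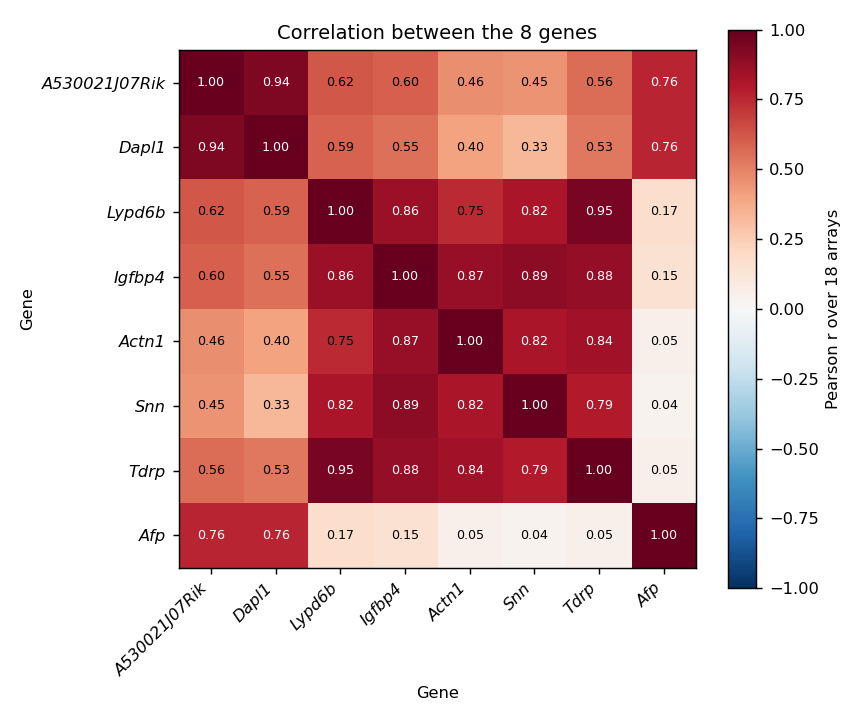
Pearson correlation between the 8 genes over 18 arrays (log2 intensity after quantile normalization). Lypd6b, Igfbp4, Actn1, Snn and Tdrp form one block (0.75 to 0.95), A530021J07Rik, Dapl1 and Afp another (0.76 to 0.94). The blocks are not fully separate: with the 5 genes of the first, A530021J07Rik and Dapl1 are at 0.33 to 0.62. Only Afp is near 0 with these 5.

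For each gene the 3 tested genes most like it over the 18 arrays were found by Pearson r. Actn1 had the closest companions: Satb1, a chromatin organiser of T cells, at 0.98, Prkcb, a protein kinase C, at 0.97, and Cmah, an enzyme of sialic acid synthesis, at 0.97. Lypd6b was followed by Abhd15 (0.96), Il1rl2, a receptor of the interleukin-1 family (0.95), and Tdrp (0.95). Tdrp was followed by Tspyl4 (0.96), Rflnb, an actin and filamin regulator (0.95), and Lypd6b (0.95). Snn was followed by Slc16a5 (0.95), Sepsecs (0.94) and Sgk3 (0.94), and Igfbp4 by Rflnb (0.91), Pag1, an adaptor at the T cell membrane (0.91), and Pdlim4 (0.90). Dapl1 and A530021J07Rik were each other's nearest gene (0.94). Next to A530021J07Rik came Ntrk3 (0.87) and 5830454E08Rik (0.87), and next to Dapl1 Lrrc75b (0.90) and 5830454E08Rik (0.86). Afp was followed by Recql, a DNA helicase (0.90), Nmnat3 (0.88) and Acot13 (0.87).

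The mean profile of the 8 genes was matched most closely by 2810001G20Rik (r 0.96), Als2cl (0.95), Gucd1 (0.94), Tmie (0.93) and Dennd2d (0.91). Tmie, known from the mechanotransduction complex of hair cells, read 823 ± 150 in lymph node Tconv, 161 ± 42.0 in lymph node Treg, 268 ± 103 in thymus Tconv, 92.6 ± 16.4 in thymus Treg, 169 ± 51.1 in fat Tconv and 78.5 ± 16.4 in fat Treg (SD, n = 3). Als2cl read 396 ± 126, 112 ± 15.6, 279 ± 20.5, 111 ± 23.5, 156 ± 70.2 and 58.7 ± 15.1 in the same order. In both genes lymph node Tconv had the highest mean and fat Treg the lowest, and thymus Tconv was next to the highest. Pou2af1, Pdlim4 and 5830454E08Rik followed at 0.90, and Commd8 and Uqcc3 at 0.89.

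The 8 genes were set beside 23 tested genes of naive and quiescent T cells. This list, like those that follow, was chosen with earlier results of these data known. Its members Als2cl and Satb1 were also named above among the genes most like the 8 over the arrays. Its counts and p-values are therefore no independent support for the 8 genes. In lymph node 3 of the 23 fell in Treg and 0 rose (1.11% and 3.21% of all genes), with a list median of -0.13; at an unadjusted limma p under 0.05, 7 fell and 0 rose. The 3 were Als2cl (-1.79 ± 0.27, limma adjusted p = 0.000413), Lef1, a TCF-family factor (-1.32 ± 0.21, limma adjusted p = 0.000785), and Satb1 (-1.29 ± 0.34, limma adjusted p = 0.0353). Satb1 lost its call when any one lymph node array was left out, with adjusted p up to 0.159. With the replicate block 6 of the 23 fell, against 2.42% of all genes lower and 5.6% higher. In thymus 2 fell and 1 rose (1.77% and 3.21% of all genes), with a median of -0.28, and with the block 4 fell and 2 rose (5.41% and 6.5%). Als2cl fell there too (-1.35 ± 0.27, limma adjusted p = 0.00529), as did Tgfbr2 (-0.91 ± 0.20, limma adjusted p = 0.00879). The gene that rose in thymic Treg was Tob1 (0.94 ± 0.25, limma adjusted p = 0.0376).

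In fat 9 of the 23 fell in Treg and 1 rose (5.19% and 6.32% of all genes), with a median of -0.64; with the block 13 fell and 1 rose (10.5% and 10.2% of all genes). Bach2, a repressor of effector differentiation, differed by -3.27 ± 0.26, Satb1 by -3.01 ± 0.34 and Klf3 by -2.19 ± 0.19 (limma adjusted p from 9.26e-08 to 6.14e-06). The gene that rose was Ramp1 (2.75 ± 0.34, limma adjusted p = 1.71e-05). Between the Tconv of fat and lymph node 11 of the 23 were lower in fat and 2 higher (11.6% and 10.9% of all genes), with a median of -1.03. Rgs10, a regulator of G protein signalling, differed by -2.04 ± 0.22 and Ccr7, the receptor that guides naive cells into lymph nodes, by -1.65 ± 0.36 (limma adjusted p = 3.72e-06 and 0.00285). The 2 higher in fat were Tob1 (1.98 ± 0.26) and Klf2 (0.92 ± 0.32), with limma adjusted p = 2.74e-05 and 0.0455. With an array left out, the Klf2 difference ranged from 0.58 to 1.35. The calls between tissues depended on the scale: as deposited, 4899 of all genes were higher in fat Tconv and 526 lower, against 1402 and 1485 on the quantile scale, and 8 of the 23 naive genes were lower and 3 higher.

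Of 20 tested genes of activated and effector T cells, 10 rose and 0 fell in lymph node Treg (3.21% and 1.11% of all genes) and 15 rose and 0 fell in thymic Treg (3.21% and 1.77%). In fat Treg 11 rose and 2 fell (6.32% and 5.19%). At an unadjusted limma p under 0.05, 1, 0 and 3 were lower in these tissues. List medians were 0.85, 1.51 and 1.03. Itgae, the alpha chain of the CD103 integrin, rose by 4.14 ± 0.22 in lymph node Treg (limma adjusted p = 6.68e-09) and by 3.95 ± 0.22 in thymic Treg (limma adjusted p = 6.94e-09). The 2 that fell in fat Treg were Ccl5, a chemokine (-4.25 ± 0.25), and Cxcr3, a chemokine receptor (-4.01 ± 0.22). In fat Tconv 16 of the 20 were higher than in lymph node Tconv and 1 lower (10.9% and 11.6% of all genes), with a median of 2.02. The 1 lower was Itgae (-0.73 ± 0.23, limma adjusted p = 0.0283). As deposited, where most of the genes called among all were higher in fat, 17 were higher and 0 lower.

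Relatives of the 8 genes were followed through lists of their families and partners, 11, 11, 8 and 6 genes passing the filter. Of 11 genes of the IGF axis, 2 rose in Treg in lymph node and in thymus, against 3.21% of all genes in each, and 0 fell (0 and 1 at an unadjusted limma p under 0.05). Igf1r, the receptor for IGF1, differed by 1.63 ± 0.18 in lymph node (limma adjusted p = 1.71e-05) and 1.17 ± 0.18 in thymus (limma adjusted p = 0.000599). Igf2r, a receptor that clears IGF2, differed by 1.24 ± 0.28 (limma adjusted p = 0.0136) and 1.66 ± 0.28 (limma adjusted p = 0.00122); its lymph node call was lost without Treg lymph node replicate 1 (0.0981), Tconv lymph node replicate 2 (0.0699) or Tconv lymph node replicate 3 (0.0673). The probe set used for the binding protein Igfbp4 read lower in Treg of every tissue. Its thymic difference was not called, and 2 other probe sets were slightly higher in fat Treg (0.13 and 0.14). A relation of Igfbp4 to either receptor was not tested. In fat 0 of the 11 were called either way, where 6.32% of all genes rose and 5.19% fell. At an unadjusted limma p under 0.05, 2 were higher and 0 lower. With the replicate block 2 rose, against 10.2% of all genes. Between fat and lymph node Tconv 0 were higher (2 at an unadjusted limma p under 0.05) and 2 lower, against 10.9% and 11.6% of all genes. The 2 were Stc2, stanniocalcin 2 (-1.55 ± 0.18, limma adjusted p = 6.57e-06), and Insr, the insulin receptor (-0.74 ± 0.19, limma adjusted p = 0.00808). As deposited 4 were higher and 1 lower, and Insr was no longer called (-0.42). On that scale the median gene was 0.33 higher in fat, and most of the genes called among all were higher there (counts above).

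Of 11 actinins and adhesion partners, 0 were called in lymph node or thymus, where 1 and 1 were higher and 1 and 3 lower at an unadjusted limma p under 0.05. With the block 1 and 1 were higher (5.6% and 6.5% of all genes) and 0 and 2 lower (2.42% and 5.41%). In fat Treg Pdlim1, an actinin-binding adaptor, fell by 1.40 ± 0.28 on the log2 scale (limma adjusted p = 0.0023) and Zyx, zyxin, by 0.56 ± 0.14 (limma adjusted p = 0.0152), while Vcl, vinculin, rose by 0.92 ± 0.24 (limma adjusted p = 0.0148). The Zyx call was lost without Treg fat replicate 3 (0.0643), Tconv fat replicate 1 (0.0519) or Tconv fat replicate 3 (0.0721), and the Vcl call without Treg fat replicate 1 (0.0817) or Tconv fat replicate 3 (0.0733). Between fat and lymph node Tconv 3 were higher and 1 lower (10.9% and 11.6% of all genes). Vcl was higher in fat by 2.76 ± 0.25 (limma adjusted p = 4.75e-07), Actn4, the other non-muscle alpha-actinin, by 0.83 ± 0.23 (limma adjusted p = 0.016) and Zyx by 0.57 ± 0.16 (limma adjusted p = 0.0149), and Msn, moesin, was lower (-0.44 ± 0.14, limma adjusted p = 0.0369). The Actn4 call was lost without Tconv lymph node replicate 1 (0.0909) or Tconv fat replicate 2 (0.0569), and that of Zyx without Tconv fat replicate 1 (0.0844). That of Msn was lost without any one Tconv lymph node array or Tconv fat replicate 3 (up to 0.18), and as deposited, where 4 of the list were higher and 0 lower, Msn differed by -0.01. On that scale most of the genes called among all were higher in fat.

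Of 8 relatives of Lypd6b with a Ly6 or uPAR domain, 0 were called in lymph node or thymus (0 higher in either, 1 and 0 lower, at an unadjusted limma p under 0.05), and Ly6e rose in fat Treg by 1.63 ± 0.36 (limma adjusted p = 0.00547), 1 of 8 beside 6.32% of all genes. With the block 1 of the 8 fell in lymph node, against 2.42% of all genes. Between fat and lymph node Tconv 1 was higher and 0 lower (10.9% and 11.6% of all genes). It was Lypd5 (0.43 ± 0.13, limma adjusted p = 0.0214). As deposited, where most of the genes called among all were higher in fat, 5 were higher and 0 lower. Lypd6, the closest relative by name, was below the filter in all 6 groups. Of 6 albumin family and hepatocyte genes, 0 were called in any of the 4 comparisons, and at an unadjusted limma p under 0.05, 0, 0 and 1 were higher for Treg in lymph node, thymus and fat and 1 in fat Tconv, with 0 lower in each. With the block 1 of the 6 rose in fat Treg, against 10.2% of all genes. As deposited 2 were higher in fat Tconv, a scale on which most of the genes called among all were higher there.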

How the data were processed

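Sorted CD4 T cells of 6 groups, 3 Affymetrix M430v2 arrays each, were analysed. Per the labels' protocols, the authors used RMA in GenePattern, which handles background, quantile normalization and probe summary; the deposited table holds linear intensity per probe set, and a version is not given in the sources used here. The labels do not say which arrays were processed jointly, and fat arrays had higher medians, so fat and lymph node were compared after quantile normalization of all 18. Precision is limited by having 3 arrays in a group.

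The table of 45101 probe sets had 64 controls, and 34945 carried 1 gene symbol, 932 more than that and 9160 none. Each gene took the probe set with the highest mean over the 18 arrays. A gene was tested if any group mean was above the overall median (6.04 on the log2 scale, intensity 65.9). The model, in limma 3.58.1 under R 4.3.3 (lmFit and eBayes), had a mean for each group and 12 residual degrees of freedom. Genes rose or fell when p, adjusted by Benjamini-Hochberg across the 12821 genes, was under 0.05. The procedure was tested on simulated data.

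The 8 genes and the gene lists were chosen with earlier results of these data known. Named genes are the 8, some of the 3 largest called genes per direction of each list, the 3 nearest genes of each of the 8, and the 10 nearest to their mean profile. Cell type markers, Alb and Lypd6 are named besides.

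Treg and Tconv arrays of one number varied together: over the 9 pairs, deviations from the group mean correlated at 0.35 to 0.68. Both arrays of each pair also share a run of array file numbers, so a shared pool and a shared run cannot be told apart. The main calls come from the fit without pairing, and a fit with replicate number as a block was an alternative. The others were the scale, no dim filter, an offset of 16 before log2, the mean of all probe sets, fits of the compared groups alone, runs of array file numbers as a block, and leaving out each array. Nothing says that replicates were separate experiments, so p-values measure the spread between these samples.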

Additional observations from a re-analysis of the deposited data

How the results depend on the processing

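With the replicate block that pairs Treg and Tconv, the count rose from 554 to 1028 in lymph node, from 638 to 1528 in thymus and from 1476 to 2652 in fat. This pairing changed the call of 1 of the 8 genes in thymus, Igfbp4. With the run of array file numbers as a random block, 871 genes were called in lymph node and 1168 in thymus. With thymus groups fitted alone, 383 were called. Between fat and lymph node Tconv 5425 genes were called as deposited, against 2887 on the quantile scale; the split was 526 lower and 4899 higher against 1485 and 1402. In fat the calls in Treg were 666 lower and 810 higher, 1341 and 1311 with the block, and 849 and 744 without Tconv fat replicate 1. Leaving out each array in turn gave 388 to 598 genes in lymph node, 437 to 976 in thymus (976 without Treg thymus replicate 3), 1104 to 1593 in fat and 2166 to 3055 between fat and lymph node Tconv. Among the 8 genes, small differences changed sign. Between fat and lymph node Treg, A530021J07Rik went from -0.32 to 0.092 and Dapl1 from -0.25 to 0.17 as deposited (Dapl1 up to 0.07 with an array left out), and Afp from -0.59 to 0.15 with probe sets averaged. Lypd6b between thymus and lymph node Tconv (-0.01) was 0.07 as deposited, 0.09 with arrays centred, and -0.27 to 0.18 with an array left out. In fat, Snn ranged from -0.28 to 0.11 and Afp from -0.46 to 0.81 with an array left out, and Snn was 0.05 with probe sets averaged. In thymus, Afp ranged from -0.13 (without Treg thymus replicate 2) to 0.49. The causes were not tested.

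Signal limits A530021J07Rik, Afp, Dapl1 and Lypd6b, whose Treg means all lie below the dim filter, Tdrp in fat Treg, and Snn, near the filter in both fat groups. The table has no detection call, so ratios against these groups can understate a difference. Fat differs from lymph node also in markers of other cells, and thymus in strain and age, which cannot be told apart from tissue.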
